A study of Mus musculus with 7 samples.

Results

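The 10 genes described here are the immediate early transcription factor genes Fos, Fosb, Fosl1, Fosl2, Jun, Junb, Egr1, Egr2, Ier2 and Myc. They were taken by symbol from the deposited table of gene counts, where all 10 were found among 34745 genes. RNA sequencing had been performed on 3T3-L1 cells, a mouse embryonic fibroblast line that can be driven to become fat cells, after they had been given exosomes that fat had shed, called AT-Exos. Exosomes are small vesicles that cells release and other cells take up. The question was how AT-Exos from lean and obese mice and from different fat depots change adipocytes.

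All 7 libraries came from wild-type 3T3-L1 cells that the labels describe as fully differentiated and used from day 8 to 10. The control library came from cells labelled as untreated, whereas the study's text sets the exosomes against PBS buffer, so what the control cells received is not settled. The other 6 libraries came from cells given, for 48 h, exosomes from wild-type mice on a low-fat diet (LFD) or a high-fat diet (HFD). The depots were inguinal white fat (iWAT), visceral white fat (vWAT) and brown fat (BAT). Groups are named by diet and depot, as in LFD-vWAT-Exos. Each group was 1 library, so no group has a replicate spread. The intervals given for single libraries cover counting error only. Where several libraries are compared, it is not stated whether they came from separate cultures or from separate mice, and p-values measure only the spread between these libraries.

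Immediate early genes are switched on within minutes of a stimulus such as serum, a growth factor or stress, without the need for new protein. Signals that pass through the MAP kinases reach factors already bound at these genes, the transcripts are short-lived, and induced phosphatases soon shut the pathway down again. Fos-family proteins (Fos, Fosb, Fosl1, Fosl2) pair with Jun-family proteins (Jun, Junb, Jund) to form AP-1, which binds DNA at target genes of growth, matrix turnover and inflammation. Fos, Fosb and Egr1 are known as transient members, while Fosl1 and Fosl2 come up later and persist, and Fosl1 is itself a known AP-1 target. In 3T3-L1 cells, early factors of this kind are induced by the differentiation cocktail and precede the adipocyte regulators. A library taken after 48 h therefore reports levels long after any first wave.

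Depth ran from 13493560 to 24345291 counts per library. Levels of 1 gene in different libraries are given as CPM, its counts divided by the library total and set to a common scale, with TMM factors that correct for a few abundant genes taking up reads. The LFD-vWAT-Exos library was the shallowest, had the lowest share of mitochondrial counts (1.10% against 2.19% to 2.60% elsewhere) and differed from the control at far more genes than any other library. Markers of mature fat cells were scarce throughout, since 8 of 12, among them Adipoq, Cfd, Plin1, Lep and Cebpa, were below 1 CPM in all 7 libraries. The label of mature adipocytes is thus met only in part, with Lpl at 1031 CPM and Fabp4 at 78.4 CPM in the control beside 7828 CPM of the fibroblast collagen gene Col1a1. In LFD-vWAT-Exos the summed adipocyte markers stood at 340 CPM against 1131 to 1392 CPM in the other 6 libraries, a difference that lies in Lpl (216 CPM against 926 to 1212 CPM). The adipocyte markers Pparg (21.5 CPM against 12.5 to 14.2 CPM) and Lipe (26.5 CPM against 12.9 to 21.2 CPM) were highest there. The summed fibroblast markers stood at 25383 CPM against 39195 to 45883 CPM, although one of them, Vim, was highest there at 8072 CPM. Summed macrophage markers stood at 118 CPM there against 33.7 to 47.3 CPM, although 4 of the 9, the defining Adgre1, Itgam and Ptprc among them, were below 1 CPM in all 7 libraries. Fewer cells of a type and less RNA per cell cannot be told apart in such bulk samples, and the part of these differences in the results was not tested.

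Levels of different genes are compared as FPKM, which also divides by gene length. On the deposited FPKM, Junb was the most abundant of the 10, with a median of 116.0 FPKM over the 7 libraries, followed by Ier2 at 61.8, Jun at 37.9, Fosl2 at 31.8, Fosl1 at 19.6 and Egr1 at 14.0. Myc (3.48 FPKM), Fos (2.46 FPKM), Fosb (0.909 FPKM) and Egr2 (0.488 FPKM) were low. The lengths behind these FPKM, recovered from counts and FPKM, were longer than the exons for some genes, 9933 bases for Myc and 7520 for Egr1, against 2717 and 4484 bases of exon in the annotation used here. With the exon lengths, the medians of Myc and Egr1 became 12.7 and 23.4 FPKM, and 3 neighbouring pairs changed places in the order, namely Jun with Fosl2, Fosl1 with Egr1 and Fosb with Egr2.

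**Figure D1:**
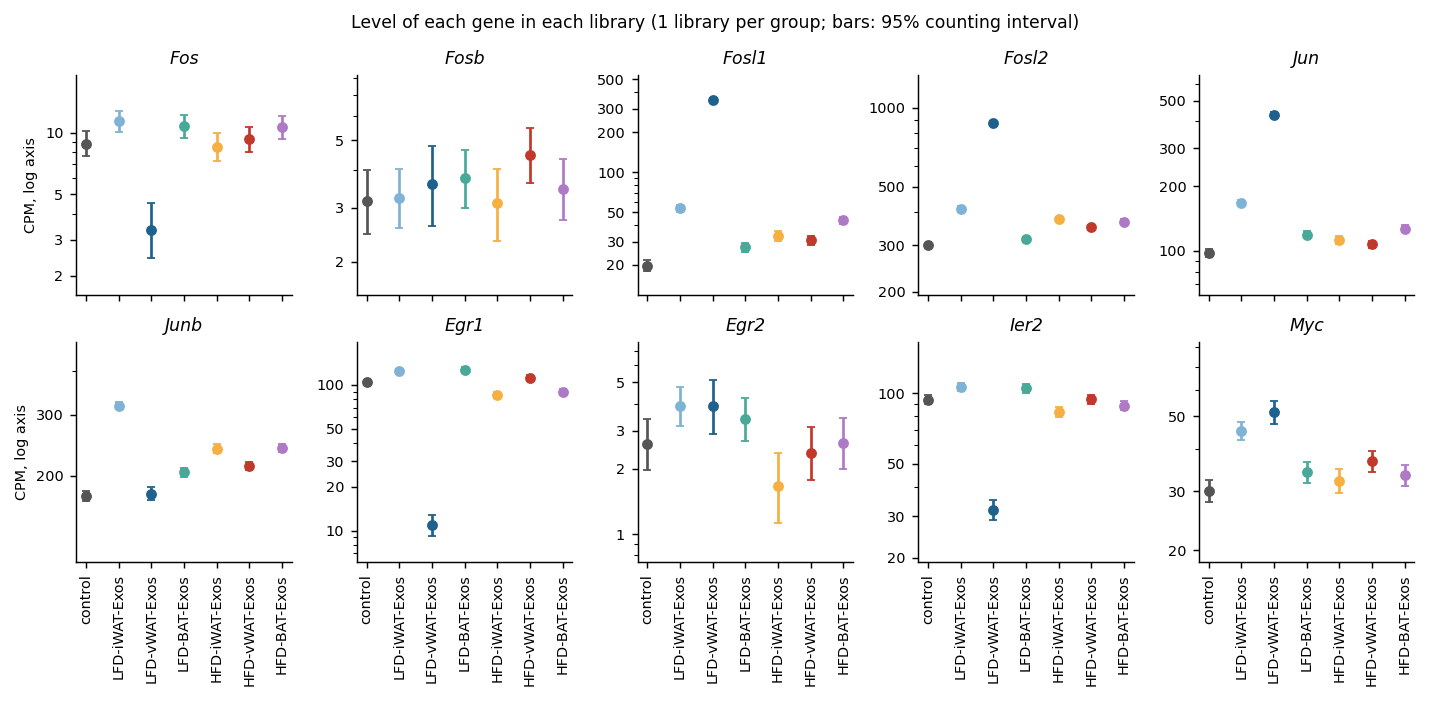
Level of each of the 10 genes (one panel each) in the 7 libraries, in TMM-scaled CPM on a log axis that differs between panels. Points are single libraries and bars are 95% counting intervals. LFD-vWAT-Exos lies above the other 6 libraries for Fosl1, Fosl2 and Jun and below them for Fos, Egr1 and Ier2.

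Fosl1 (Fra-1), the late Fos protein that lacks a transactivation domain of its own, varied most. It stood at 19.7 CPM in the control, 53.3 in LFD-iWAT-Exos, 352.1 in LFD-vWAT-Exos, 27.2 in LFD-BAT-Exos, 33.0 in HFD-iWAT-Exos, 30.6 in HFD-vWAT-Exos and 43.3 in HFD-BAT-Exos. The control was the lowest library and LFD-vWAT-Exos the highest, and of the neighbours in this order only HFD-iWAT-Exos and HFD-vWAT-Exos did not differ beyond counting error. Against the same control, the fold was 17.8 (95% counting interval 16.2 to 19.7) in LFD-vWAT-Exos, 2.70 (2.42 to 3.02) in LFD-iWAT-Exos and 2.19 (1.96 to 2.46) in HFD-BAT-Exos. The other 3 folds were below 2, at 1.67 in HFD-iWAT-Exos, 1.55 in HFD-vWAT-Exos and 1.38 in LFD-BAT-Exos. Without LFD-vWAT-Exos the highest library was still 2.70 times the lowest, a range wider than in all but 1.85% of the 9351 genes with a mean of at least 10 CPM, whose median range was 1.24-fold.

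Fosl1 lies on chromosome 19 from 5447547 to 5455946 on the plus strand (GRCm38, GENCODE vM21), with up to 4 exons. Of its exon bases, 57.2% also belong to Ccdc85b on the opposite strand, and although the library protocol marks strand, whether the counting used it is not given in the sources used here. Ccdc85b had 846 counts in LFD-vWAT-Exos against 4514 for Fosl1, and 463 against 438 in the control. Its own level was 20.9 CPM in the control, 66.0 CPM in LFD-vWAT-Exos and 22.1 to 29.9 CPM in the other 5 libraries. The Fosl1 count in LFD-vWAT-Exos thus exceeded all counts of its partner there, while in the control the numbers were alike. Fosl1 and Ccdc85b had 1316 and 625 counts in LFD-iWAT-Exos, 615 and 503 in LFD-BAT-Exos and 596 and 412 in HFD-iWAT-Exos. They had 657 and 474 in HFD-vWAT-Exos and 950 and 657 in HFD-BAT-Exos. Reads of the pair may be mixed in these libraries and the control, and so in the Fosl1 ratios between them.

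Fosl2 (Fra-2), the other long-lived Fos protein, was the most abundant of its family in 6 of 7 libraries. Its level was 299.8 CPM in the control, 413.7 in LFD-iWAT-Exos, 872.9 in LFD-vWAT-Exos, 315.8 in LFD-BAT-Exos, 376.0 in HFD-iWAT-Exos, 350.7 in HFD-vWAT-Exos and 368.5 in HFD-BAT-Exos. LFD-vWAT-Exos was again highest and the control lowest, with 2.91 times the control level (2.82 to 3.00). The next, LFD-iWAT-Exos, had 1.38 times (1.34 to 1.42). HFD-iWAT-Exos and HFD-BAT-Exos did not differ beyond counting error. The gene spans chromosome 5 from 32135801 to 32157842 on the plus strand.

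Fos, the founding AP-1 subunit, went the other way in LFD-vWAT-Exos. It was measured at 8.84 CPM in the control, 11.4 in LFD-iWAT-Exos, 3.35 in LFD-vWAT-Exos, 10.7 in LFD-BAT-Exos, 8.54 in HFD-iWAT-Exos, 9.31 in HFD-vWAT-Exos and 10.6 in HFD-BAT-Exos. In LFD-vWAT-Exos, with 43 counts, the control was 2.63 times higher (1.89 to 3.76). The other 6 libraries lay within 1.33-fold of each other, and none of their neighbours in the order differed beyond counting error. Further apart in the order, LFD-iWAT-Exos exceeded the control beyond counting error, at 1.29 times (1.07 to 1.55). Fosb, which is close to Fos in structure, was at 3.10 to 4.47 CPM (46 to 96 counts), and LFD-vWAT-Exos, at 3.59 CPM, lay inside that range. No neighbours in its order differed beyond counting error. Against the control, only HFD-vWAT-Exos did, at 1.42 times (1.03 to 1.96).

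Jun, the subunit that can also pair with itself, was highest in LFD-vWAT-Exos, as Fosl1 and Fosl2 were. Its levels were 98.2 CPM in the control, 167.7 in LFD-iWAT-Exos, 428.9 in LFD-vWAT-Exos, 119.2 in LFD-BAT-Exos, 112.5 in HFD-iWAT-Exos, 107.2 in HFD-vWAT-Exos and 126.8 in HFD-BAT-Exos. The fold over the control was 4.37 (4.16 to 4.59) in LFD-vWAT-Exos and 1.71 (1.62 to 1.80) in LFD-iWAT-Exos. Jun is a single exon on chromosome 4 from 95049034 to 95052222 on the minus strand, and the antisense gene Junos, which covers 7.28% of it, had 29 to 87 counts per library against 2030 to 5499 for Jun.

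Junb, which often restrains Jun at growth genes, followed another pattern. It stood at 174.5 CPM in the control, 318.2 in LFD-iWAT-Exos, 177.3 in LFD-vWAT-Exos, 204.5 in LFD-BAT-Exos, 239.2 in HFD-iWAT-Exos, 213.3 in HFD-vWAT-Exos and 240.2 in HFD-BAT-Exos. LFD-iWAT-Exos was the highest library at 1.82 times the control (1.75 to 1.90). LFD-vWAT-Exos was within counting error of the control, with a ratio of 1.02 (0.964 to 1.07). Junb lies on chromosome 8 from 84974484 to 84978718 on the minus strand, and 7.52% of its exon bases overlap Prdx2 on the opposite strand, whose level was 97.0 CPM in LFD-vWAT-Exos and 225.2 to 260.8 CPM elsewhere.

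The DNA upstream of Fos, Fosb, Jun and Junb is shown because these paralogues took 3 different courses in LFD-vWAT-Exos. A RefSeq table (GRCm38.p6) held a start-site window for 6 of the 10 genes, Fos, Fosb, Fosl2, Jun, Junb and Egr2. The 120 bases that end just before the RefSeq start are printed 5′ to 3′ on the gene's own strand. Capitals mark TGACG, the core of the cAMP response element that CREB binds, TATAAA, the TATA box, and TGACATCA, the AP-1-like element for which the Jun promoter is known. The windows are chr12:85473770-85473889 (plus) for Fos, chr7:19310046-19310165 (minus) for Fosb, chr4:95052223-95052342 (minus) for Jun and chr8:84978749-84978868 (minus) for Junb.
Fos: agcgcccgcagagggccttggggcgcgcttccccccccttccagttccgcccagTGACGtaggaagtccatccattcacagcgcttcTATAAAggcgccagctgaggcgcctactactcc
Fosb: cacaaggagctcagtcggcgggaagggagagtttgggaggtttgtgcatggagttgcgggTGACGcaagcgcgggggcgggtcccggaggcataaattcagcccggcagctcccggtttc
Jun: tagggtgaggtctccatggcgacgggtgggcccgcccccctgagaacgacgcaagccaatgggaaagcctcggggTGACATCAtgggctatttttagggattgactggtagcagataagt
Junb: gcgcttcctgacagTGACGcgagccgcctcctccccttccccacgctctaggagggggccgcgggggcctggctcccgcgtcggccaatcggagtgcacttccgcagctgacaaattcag

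The search covered both strands of the 250 bases before the start, and positions count from the motif's first base to the start. TGACG began 66 and 129 bases before the Fos start, 60 before that of Fosb, 106 before that of Junb, and 55 and 111 before that of Egr2, and was not among the letters of the Jun and Fosl2 windows. Of 32851 windows of the same length, 17.8% held it. TATAAA, present in 12.4% of windows, was found in Fos alone, 33 bases before the start. TGACATCA, in 2.93% of windows, was found in Jun alone, 45 bases before the start. The CArG box that serum response factor binds, in 1.47% of windows, was found in the Egr2 window alone, 72 bases before the start. Bases more than 250 before a start, and genes without a window, were not searched for any motif. GCGNGGGCG, the site that Egr proteins bind (4.70% of windows), began 50 bases before the Fosb start and 79 before that of Fosl2. All 120 bases before the RefSeq start of Fosl2, and 6 of the 120 before that of Fosb, lie inside exons of GENCODE vM21, so the Fosl2 match is in transcribed sequence of that annotation. The full cAMP element TGACGTCA, which contains TGACG, was in none of the 6 windows and in 1.55% of all windows. The AP-1 site TGANTCA (6.75% of all windows) and the Myc E-box CACGTG (6.02% of all windows) were in none of the 6 either. Fos and Fosb thus shared a TGACG at a like distance and differed in LFD-vWAT-Exos, and a match is a description of the letters only.

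**Figure D2:**
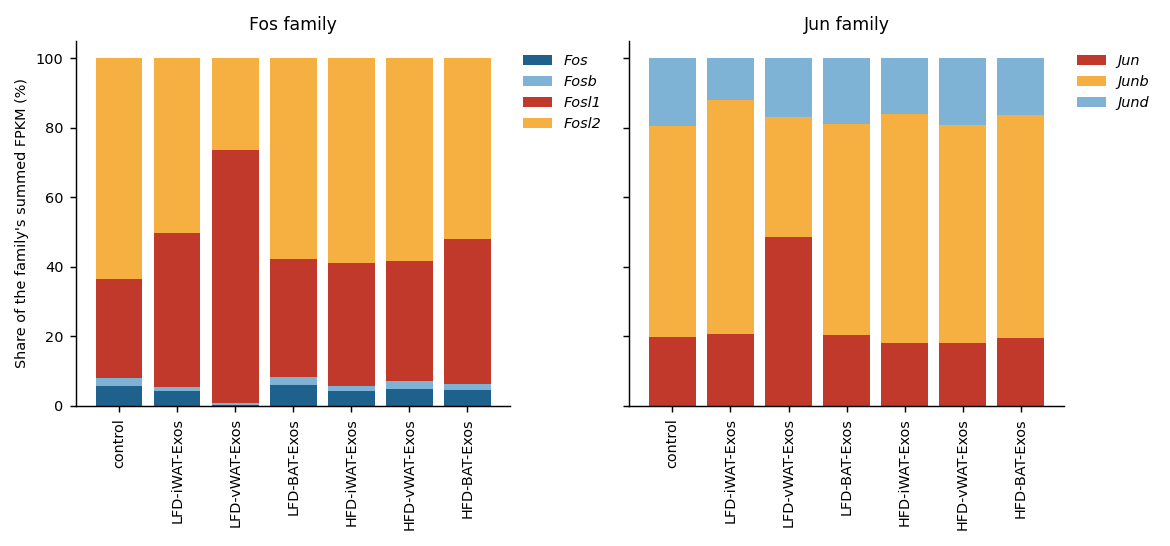
Share of each Fos-family gene (left) and each Jun-family gene (right) in the summed deposited FPKM of its family, in percent, 1 bar per library. Fosl1 makes up 72.8% of the Fos family in LFD-vWAT-Exos and 28.5% to 44.2% in the other libraries, and Jun makes up 48.4% of the Jun family there and 17.9% to 20.5% elsewhere.

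The make-up of the AP-1 transcript pool therefore differed in LFD-vWAT-Exos. Summed Fos-family FPKM was 40.9 in the control and 269.2 in LFD-vWAT-Exos, and the share of Fosl1 was 28.5% and 72.8%. Fosl2 held 63.7% in the control and 26.5% in LFD-vWAT-Exos, and Fos 5.74% and 0.312%. In LFD-iWAT-Exos, the next in order, Fosl1 held 44.2%. Among the Jun family, with summed FPKM of 157.2 in the control and 264.1 in LFD-vWAT-Exos, Jun held 19.8% and 48.4%, and Junb 60.9% and 34.7%. With the exon lengths of the annotation in place of the recovered ones, the share of Fosl1 was 21.6% and 65.3%, and that of Jun 19.4% and 45.9%. Junb moved more, to 47.8% and 26.3%, and Jund went from 19.4% and 16.9% to 32.8% and 27.8%. Of the Jund exon bases, 52.6% overlap the antisense gene Gm11175 on the opposite strand. In LFD-iWAT-Exos the Jun family summed to a like 259.8 deposited FPKM, of which Junb held 67.5% and Jun 20.5% (56.7% and 21.6% with the exon lengths).

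The zinc finger factor Egr1, an early relay of growth factor signals, was lower in LFD-vWAT-Exos than in any other library, by the widest margin of the 10. Its levels were 104.0 CPM in the control, 124.5 in LFD-iWAT-Exos, 10.9 in LFD-vWAT-Exos, 127.5 in LFD-BAT-Exos, 85.5 in HFD-iWAT-Exos, 111.7 in HFD-vWAT-Exos and 89.7 in HFD-BAT-Exos. The control was 9.53 times higher than LFD-vWAT-Exos (8.03 to 11.4), which rested on 140 counts, and the lowest of the other 6 was 7.83 times higher. Among those 6 the range was 1.49-fold, with LFD-iWAT-Exos and LFD-BAT-Exos on top and HFD-iWAT-Exos and HFD-BAT-Exos at the bottom, and the libraries of each of these pairs did not differ beyond counting error. Egr1 lies on chromosome 18 from 34859823 to 34864984 on the plus strand.

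Egr2 (Krox20), which takes part in early adipogenesis of 3T3-L1 cells, was low, with 30 to 96 counts. It was at 2.62 CPM in the control, 3.89 in LFD-iWAT-Exos, 3.90 in LFD-vWAT-Exos, 3.41 in LFD-BAT-Exos, 1.66 in HFD-iWAT-Exos, 2.37 in HFD-vWAT-Exos and 2.64 in HFD-BAT-Exos. No neighbours in this order differed beyond counting error, and unlike Egr1 it was not low in LFD-vWAT-Exos. Against the control, LFD-iWAT-Exos (1.49 times, 1.06 to 2.10) and LFD-vWAT-Exos (1.49 times, 1.001 to 2.22) differed beyond it. Ier2, a single-exon early gene on chromosome 8 from 84661331 to 84662852 (minus strand), resembled Egr1. It stood at 93.8 CPM in the control, 106.3 in LFD-iWAT-Exos, 31.8 in LFD-vWAT-Exos, 104.8 in LFD-BAT-Exos, 83.0 in HFD-iWAT-Exos, 94.1 in HFD-vWAT-Exos and 88.5 in HFD-BAT-Exos, and the control was 2.95 times LFD-vWAT-Exos (2.65 to 3.29). Myc, the growth regulator on chromosome 15 from 61985391 to 61990374 (plus strand), ranged from 30.03 CPM in the control to 45.2 CPM in LFD-iWAT-Exos and 51.4 CPM in LFD-vWAT-Exos, with 32.1 to 36.8 CPM in the other 4. Its fold over the control was 1.71 (1.53 to 1.91) in LFD-vWAT-Exos and 1.51 (1.37 to 1.66) in LFD-iWAT-Exos.

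**Figure D3:**
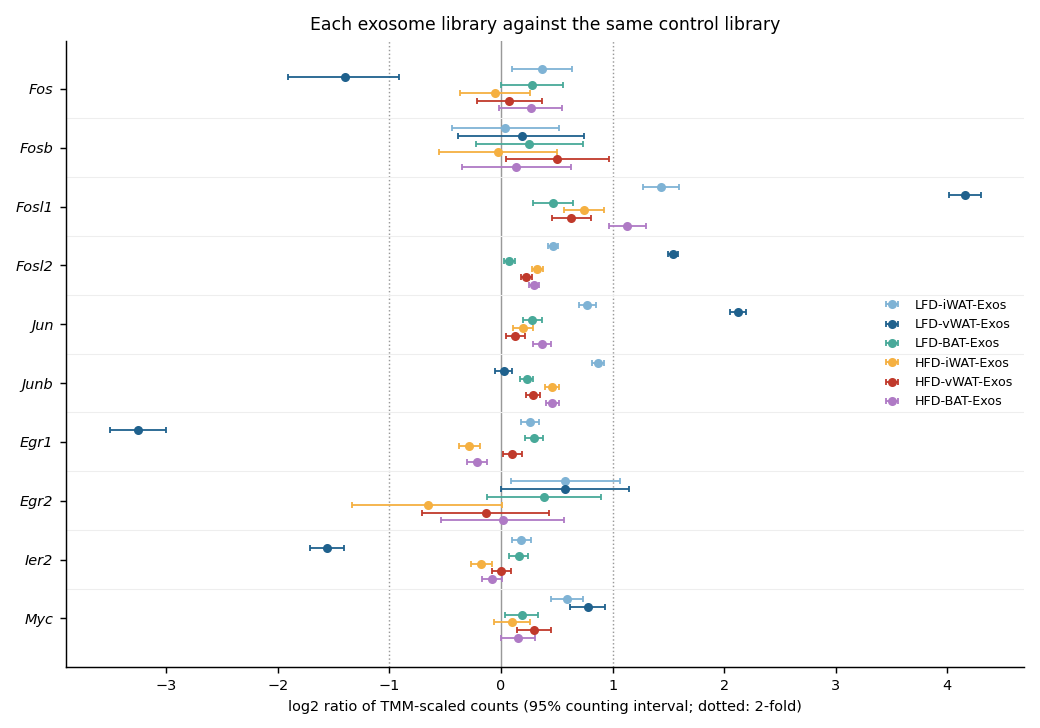
Log2 ratio of each exosome library to the 1 control library for the 10 genes, with 95% counting intervals. Dotted lines mark 2-fold. For LFD-vWAT-Exos 6 genes lie beyond 2-fold, Fosl1, Jun and Fosl2 to the right and Egr1, Ier2 and Fos to the left, and the remaining libraries pass 2-fold only for Fosl1, in LFD-iWAT-Exos and HFD-BAT-Exos.

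Between single libraries a gene was called apart where it reached 1 CPM in either, the ratio was at least 2-fold and the counting interval excluded equal levels. Of the 10 genes, 6 were apart in LFD-vWAT-Exos against the control, 3 higher (Fosl1, Fosl2, Jun) and 3 lower (Fos, Egr1, Ier2), beside 30.6% of all genes tested. With a minimum of 10 CPM, or on FPKM + 1 (log2 ratio -0.86), Fos was not among them. Fosl1 alone was apart in LFD-iWAT-Exos, where 5.09% of genes were, and in HFD-BAT-Exos, where 2.27% were. None of the 10 was apart in LFD-BAT-Exos (1.76% of genes), HFD-iWAT-Exos (2.91%) or HFD-vWAT-Exos (1.98%). All 6 comparisons share the 1 control library. The median log2 ratio of the 10 was 0.51 in LFD-iWAT-Exos, 0.37 in LFD-vWAT-Exos, 0.26 in LFD-BAT-Exos, 0.04 in HFD-iWAT-Exos, 0.18 in HFD-vWAT-Exos and 0.21 in HFD-BAT-Exos, and that of all genes lay between -0.04 and 0.00. At a 1.5-fold threshold Jun, Junb and Myc were also apart in LFD-iWAT-Exos (12.8% of genes), Myc in LFD-vWAT-Exos (52.3%) and Fosl1 in HFD-iWAT-Exos (8.39%) and HFD-vWAT-Exos (5.25%).

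LFD-vWAT-Exos was also set against each of the other 6 libraries. The same 6 genes were at least 2-fold beyond all 6, Fosl1, Fosl2 and Jun above and Fos, Egr1 and Ier2 below, which 18.6% of genes tested were. Fosl1 was 6.60 times the highest of the other 6, Jun 2.56 times and Fosl2 2.11 times. The lowest of the other 6 was 2.61 times LFD-vWAT-Exos for Ier2 and 2.54 times for Fos. Over all 7 libraries the range of Fosl1 was wider than in all but 0.417% of the 9351 genes, that of Egr1 than in all but 0.770%, and that of Jun than in all but 5.89%.

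**Figure D4:**
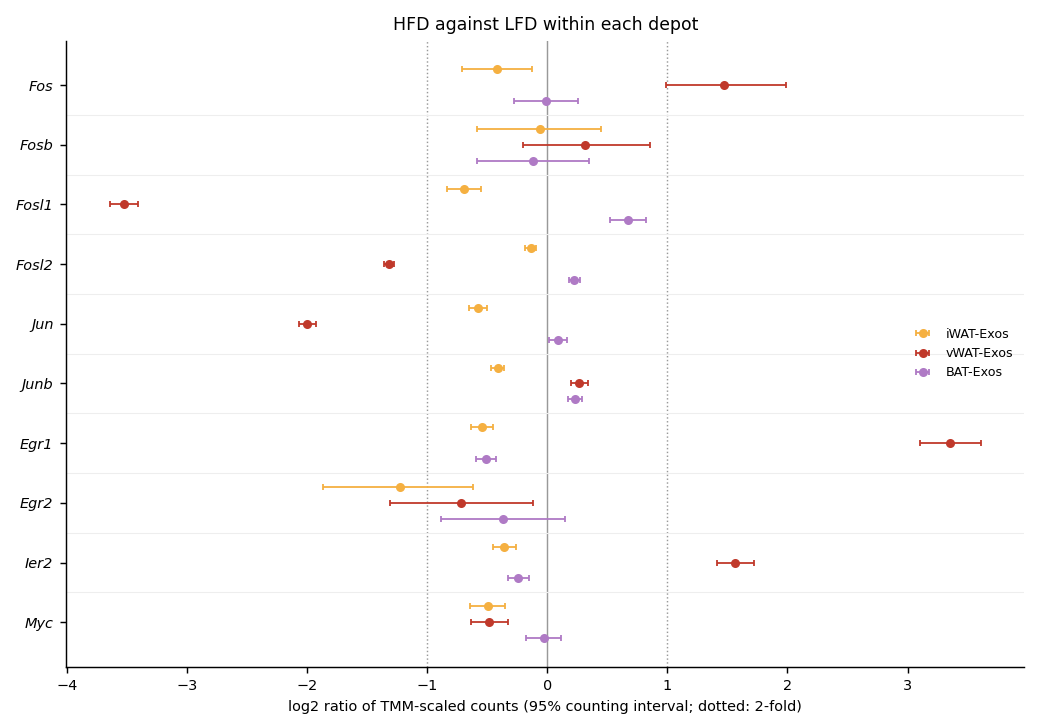
Log2 ratio of HFD to LFD exosome libraries within each depot for the 10 genes, with 95% counting intervals, where dotted lines mark 2-fold. The vWAT points lie beyond 2-fold for Fosl1, Jun and Fosl2 (lower in HFD) and for Egr1, Ier2 and Fos (higher in HFD), while Egr1 and Ier2 lie to the left of 0 for iWAT and BAT.

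Diet within a depot was the main contrast of the study. In vWAT, 6 of the 10 genes were apart, beside 29.7% of genes tested, and this comparison contains the LFD-vWAT-Exos library. Egr1 was 10.2 times higher with HFD-vWAT-Exos than with LFD-vWAT-Exos (8.62 to 12.2), Ier2 2.96 times (2.66 to 3.30) and Fos 2.78 times (1.99 to 3.96), the last not apart with a minimum of 10 CPM or on FPKM + 1. Fosl1 was 11.5 times lower (10.6 to 12.5), Jun 3.999 times (3.81 to 4.201) and Fosl2 2.49 times (2.42 to 2.56). In iWAT only Egr2 was apart, beside 2.54% of genes, at 2.34 times lower with HFD-iWAT-Exos (1.54 to 3.65) on 30 and 96 counts, a call that was also lost in both of these settings. In BAT none was apart, beside 1.95% of genes.

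All 10 genes were lower in HFD-iWAT-Exos than in LFD-iWAT-Exos, Egr2 alone by 2-fold or more. For 9 of them, Fosb excepted, the counting interval excluded equal levels, as it did for 22.7% of genes tested in that direction. That share holds at any fold and is not matched for counts. A gene with many counts passes on a small ratio, as Fosl2 did at 1.10 times (1.07 to 1.13). LFD-iWAT-Exos had 1.61 times the Fosl1 (1.46 to 1.78), 1.49 times the Jun (1.41 to 1.57), 1.46 times the Egr1 (1.37 to 1.55) and 1.41 times the Myc (1.27 to 1.56) of HFD-iWAT-Exos. The median log2 ratio of the 10 was -0.45 there, while that of all genes was 0.00. In BAT, Egr1 was again lower with HFD, 1.42 times (1.34 to 1.51), and Ier2 1.18 times (1.11 to 1.26). Fosl1 was higher, 1.59 times (1.44 to 1.76), as were Fosl2 and Junb, both 1.17 times. The median of the 10 in BAT was -0.02.

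Across several libraries no difference passed the test. edgeR's quasi-likelihood test with Benjamini-Hochberg adjustment over all genes called 0 of the 10 between the 6 AT-Exos libraries and the control, beside 0.00709% of genes tested, which was 1 gene. Fosl1 had the largest log2 fold change, 2.19 ± 1.72 (SE), with an edgeR adjusted p of 1.00. The 10 genes also had 0 calls for HFD against LFD over 3 depots, for vWAT against iWAT and for BAT against iWAT, as did all other genes (0.0% in each of the 3). None of the 10 had an unadjusted p under 0.05 in these 4 fits. Over all genes tested, an unadjusted edgeR p under 0.05 was reached by 120 genes for AT-Exos against the control, 73 for diet, 366 for vWAT against iWAT and 124 for BAT against iWAT. DESeq2 called 5, 8, 10 and 2 genes in these 4 fits, and limma-voom 1, 0, 0 and 0. DESeq2 and limma called none of the 10 either, although DESeq2 gave no p-value for Fosl1 in AT-Exos against the control (log2 fold change 2.22 ± 1.33, SE). They gave unadjusted p under 0.05 for Jun (DESeq2) and Egr2 (limma on FPKM) in the diet fit and for Fosl1 (DESeq2) in vWAT against iWAT. The fits hold 6 libraries against 1, or 3 against 3 and 2 against 2, and the LFD-vWAT-Exos library sets most of their spread, with a common dispersion of 0.0932 with it and 0.0218 without it in the first fit.

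Without LFD-vWAT-Exos the 10 genes again had 0 calls by edgeR, beside 0.079% of genes for AT-Exos against the control, 0.0796% for diet, 0.0868% for vWAT against iWAT and 0.0% for BAT against iWAT. The diet values then rested on iWAT and BAT, the depots left with both diets, with 1 residual degree of freedom per gene. edgeR's quasi-likelihood test also borrows spread from all genes, so its p and SE do not measure the spread of 1 gene alone. That of Egr1 turned from 0.57 ± 0.91 (log2, SE) with all libraries to -0.53 ± 0.11 without LFD-vWAT-Exos. Its edgeR unadjusted p was 0.00156 and its adjusted p 0.584. Ier2 likewise went from 0.29 ± 0.43 to -0.30 ± 0.11, with an edgeR unadjusted p of 0.0265 and adjusted p of 1.00. For AT-Exos against the control, Fosl1 went from 2.19 to 0.93. It was higher than the control in 5 of the 5 libraries left, which all share that 1 control library and so are not separate findings. Egr1 in vWAT against iWAT stood at 0.37 in place of -1.08, but vWAT was then HFD-vWAT-Exos alone, so this no longer spans both diets.

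**Figure D5:**
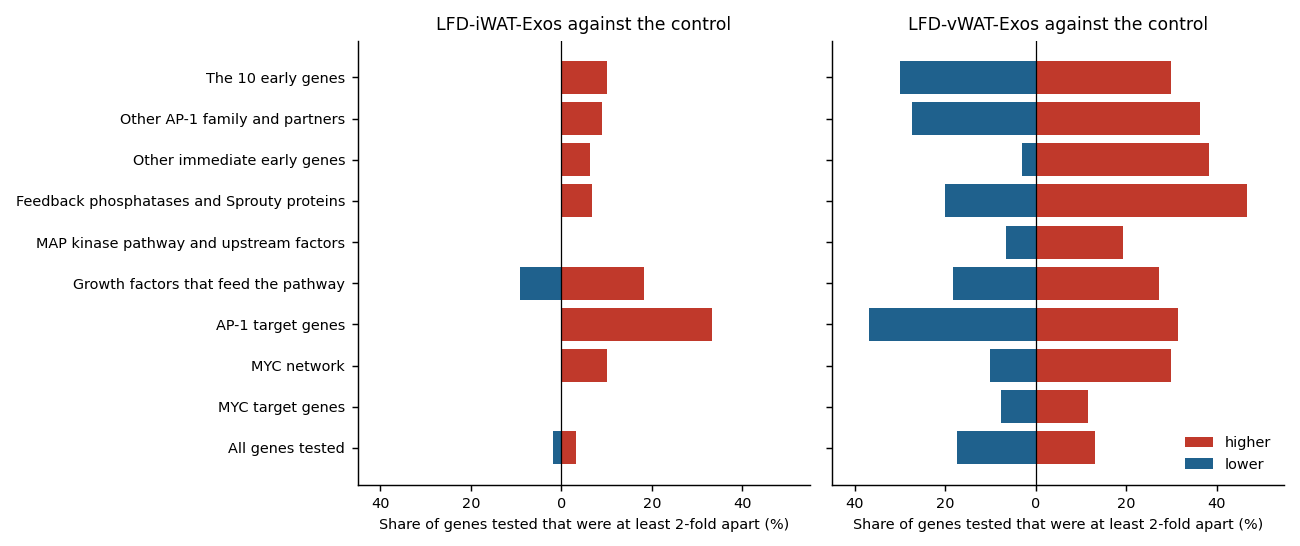
Share of the tested genes of each list that were at least 2-fold apart from the control, in percent, in LFD-iWAT-Exos (left) and LFD-vWAT-Exos (right). Bars to the right are higher and bars to the left lower than the control, and the bottom bar is all genes tested. In LFD-vWAT-Exos, 13 of 34 other immediate early genes were higher and 1 lower.

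Other genes of the pathway were followed by lists. Of 34 other immediate early genes tested, 13 were apart and higher in LFD-vWAT-Exos than in the control and 1, Btg2, was lower, while of all 12589 genes 1660 were higher and 2190 lower. Ctgf, a matrix protein gene, went from 33 to 1213 counts (63.6 times, 45.0 to 92.8), Nr4a3, an orphan nuclear receptor, from 6 to 114 counts (32.9 times, 14.6 to 91.4) and Ier3, a survival factor, was 7.12 times higher. Fos, Egr1 and Ier2 were thus low in a library where most of the other early genes that were apart were high. Fosb, also known as transient, was not low there, at 1.14 times the control (0.766 to 1.67). The list's median log2 ratio was 0.69 beside -0.04 for all genes. In LFD-iWAT-Exos 2 of 32 were apart, beside 5.09% of all genes, Ier3 at 2.27 times and Ctgf at 2.83 times the control.

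Of 15 feedback phosphatase and Sprouty genes, which shut the pathway down, 7 were apart and higher in LFD-vWAT-Exos and 3 lower (Dusp7, Spry1, Spry4), beside 30.6% of all genes apart in either direction. Dusp4, which removes phosphate from ERK in the nucleus, was 13.05 times the control (11.1 to 15.4) and Dusp1, which acts on p38 and JNK, 4.67 times (4.33 to 5.04). In LFD-iWAT-Exos only Dusp6, the cytoplasmic ERK phosphatase, was apart, at 2.75 times (2.31 to 3.29), beside 5.09% of all genes. Of 31 MAP kinase pathway genes, 8 were apart in LFD-vWAT-Exos, a share below the 30.6% of all genes. Higher were 6, among them Mapk14 (p38 alpha) at 3.58 times and Egfr at 2.99 times, and lower were 2, Nras and Mapk11 (p38 beta), the latter 5.09 times. None of the 31 was apart in LFD-iWAT-Exos.

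Of 11 growth factor genes tested, 5 were apart in LFD-vWAT-Exos (3 higher, 2 lower), beside 30.6% of all genes. Hbegf, a ligand of the EGF receptor, and Lif, a cytokine of the IL-6 family, were apart and higher in the libraries where Fosl1 was. These were LFD-vWAT-Exos, LFD-iWAT-Exos (5.09% of all genes apart) and HFD-BAT-Exos (2.27%). Hbegf was also apart in HFD-iWAT-Exos (2.91%). In LFD-iWAT-Exos 1 gene, Fgf2, was apart and lower. Hbegf was at 14.4 CPM in the control, 47.4 in LFD-iWAT-Exos, 117.7 in LFD-vWAT-Exos, 21.4 in LFD-BAT-Exos, 30.5 in HFD-iWAT-Exos, 25.5 in HFD-vWAT-Exos and 42.0 in HFD-BAT-Exos. These libraries stand in the same order as for Fosl1. Igf1 was 5.98 times lower than the control in LFD-vWAT-Exos (5.16 to 6.97), and Egf 6.55 times (3.32 to 14.7) on 9 counts there.

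The AP-1 target list split in LFD-vWAT-Exos, with 6 of 19 genes higher than the control and 7 lower, beside 1660 higher and 2190 lower of all 12589 genes. Ptgs2, the inducible cyclooxygenase, was 6.10 times higher, whereas the chemokine gene Ccl2 was 6.04 times lower. In LFD-iWAT-Exos 6 of 18 were higher and 0 lower, beside 391 higher and 242 lower of 12432 genes. Ptgs2 was at 3.48 times, the IL-33 receptor gene Il1rl1 at 3.26 times, the stromelysin gene Mmp3 at 3.19 times and its inhibitor Timp1 at 2.96 times. With HFD-BAT-Exos, Ptgs2 was apart at 2.45 times. In each of the remaining 3 comparisons with the control 1 gene was apart and higher. These were Mmp10 with LFD-BAT-Exos, Ptgs2 with HFD-iWAT-Exos and Mmp12 with HFD-vWAT-Exos. Of all genes, 1.76%, 2.91% and 1.98% were apart in these 3 comparisons.

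Partners of the 10 showed their own pattern. Of 11 other AP-1 and partner genes, 1 was apart in LFD-iWAT-Exos, Maff, a small Maf protein, at 2.46 times, beside 5.09% of all genes. In LFD-vWAT-Exos 4 were higher, led by Maff at 12.3 times (11.2 to 13.5). Lower there were 3, among them Maf at 3.74 times and Jdp2, which represses AP-1, at 2.23 times. Of all genes, 30.6% were apart there in either direction. In the MYC network, Mxi1 and Mxd1, which compete with Myc for Max, were 4.76 and 4.45 times the control in LFD-vWAT-Exos, and Mxd4 was 3.34 times lower. Of 26 MYC target genes, 3 were higher there (Npm1, Ldha, Tfrc) and 2 lower (Odc1, Srm), a share below the 30.6% of all genes, and none was apart in the other 5 comparisons with the control. The 2 Egr cofactor genes were apart in none of the 9 comparisons of single libraries.

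The closest patterns to the 3 most variable of the 10 were sought among 10541 genes with a mean of at least 5 CPM, by the root mean square difference of centred log2 CPM over the 7 libraries. Closest to Fosl1 were Maff (0.17), Krt80 (0.19) and Mettl7b (0.20). Maff stood at 22.6 CPM in the control and 278.1 CPM in LFD-vWAT-Exos. Closest to Egr1 were Rapgef3 (0.18), Gm996 (0.21) and Steap4 (0.21), all lowest in LFD-vWAT-Exos. Closest to Jun were Atp7b (0.09), the phosphatase gene Dusp1 (0.10) and Ddit4 (0.10), which rests, as for the others, largely on LFD-vWAT-Exos.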

How the data were processed

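RNA of 7 3T3-L1 libraries, 1 per group, was sequenced. According to the methods and the submitters' processing notes, the authors cleaned reads, aligned them with HISAT2 and assembled and counted with StringTie, and analysed with edgeR. A human build is named although the gene identifiers are mouse Ensembl ones, and the mouse build and annotation are not given in the sources used here. The deposited values are raw counts per gene and FPKM, which the authors computed per library total and per length. The methods describe a second strand made with dUTP and then removed, which marks strand, but not whether the counting used it.

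The counts were scaled by TMM (edgeR 4.0.16, 12090 genes). Ratios between single libraries used a prior count of 2 for the log2 value and exact Clopper-Pearson 95% intervals, and apart is defined in the results. Genes kept by filterByExpr were fitted across libraries in edgeR by quasi-likelihood, and p-values were adjusted by the Benjamini-Hochberg method (threshold 0.05). Depot or diet was a block, except in AT-Exos against the control, which had none. DESeq2 1.42.0, limma 3.58.1 (log2 of FPKM + 1), other scalings, filters and thresholds were alternatives. Scripts were tested on simulated data. Gene models came from GENCODE vM21 (GRCm38).

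The 10 genes and the gene lists were chosen with earlier results of these data known. All 10 are named. Of each other list, the named genes are among the 4 with the largest ratio and at least 50 counts in a comparison, except those listed with a count of 5 or fewer. Motifs were chosen after the sequences were seen. Intervals cover counting error only. Some results of the wider gene lists are not reported here.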

Additional observations from a re-analysis of the deposited data

Results flagged for a closer look

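In 13 of 30 comparisons of the HFD-against-LFD ratio between depots, a gene was higher with HFD in one depot and lower in the other, each beyond counting error, as in 17.0% of 36754 such comparisons over all genes tested. The differences between depots were not tested, since each ratio rests on 1 library per diet. Of the 13, 9 involve vWAT and so the LFD-vWAT-Exos library.

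As differences of log2 ratios, vWAT minus iWAT was 1.859 for Fos, 0.678 for Junb, 3.885 for Egr1 and 1.917 for Ier2. For vWAT minus BAT the values were -4.189 for Fosl1, -1.538 for Fosl2, -2.088 for Jun, 3.851 for Egr1 and 1.804 for Ier2. Between depots that leave LFD-vWAT-Exos out, BAT minus iWAT was 1.358 for Fosl1, 0.361 for Fosl2, 0.665 for Jun and 0.644 for Junb.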

How the results depend on the processing

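Of 106 recomputed counts of the 10 genes, 98 stayed within 1.5 times. The number apart from the control over 6 comparisons went from 8 to 14 at a 1.5-fold threshold. With a minimum of 10 CPM or on FPKM + 1, Egr2 was no longer apart in iWAT, nor Fos in LFD-vWAT-Exos against the control and in HFD against LFD in vWAT. Counts of calls in the 4 fits were 0 under all settings run.

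No paired analysis was possible because every group is 1 library, with no replicate numbers to match. The fits of diet and of depot match libraries by depot or by diet instead, while AT-Exos against the control matches none. Of 290 recomputed fit values 22 changed sign, none of them called. For AT-Exos against the control, Fos became -0.0093 with limma-voom and -0.032 with limma on FPKM. Without LFD-vWAT-Exos, Egr1 became 0.052 and Ier2 0.024 in that fit. The diet values without that library and with iWAT and BAT alone were -0.21 and -0.21 for Fos, -0.094 and -0.093 for Fosb, 0.039 and 0.041 for Fosl2, -0.093 and -0.092 for Junb, -0.53 and -0.53 for Egr1 and -0.30 and -0.30 for Ier2. For vWAT against iWAT without it, HFD-vWAT-Exos alone stood for vWAT. There Fos became 0.0084, Fosl1 -0.50, Fosl2 -0.20, Jun -0.25, Egr1 0.37 and Ier2 0.14. Leaving this library out removes it by construction, and the cause of its difference was not tested.

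Of 200 recomputed levels 8 moved beyond the counting interval, all in LFD-vWAT-Exos. The order of libraries changed in 9 of 30 repeats, for Fosb, Junb, Egr2 and Ier2. Depth limits Fosb and Egr2, with fewer than 100 counts per library.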

Other observations

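Cebpb and Ctgf, outside the 10, were both at least 2-fold above the control in LFD-BAT-Exos and in all 3 HFD libraries. Of all genes, 1.76% were apart in LFD-BAT-Exos, 2.91% in HFD-iWAT-Exos, 1.98% in HFD-vWAT-Exos and 2.27% in HFD-BAT-Exos. Both were also apart and higher in LFD-vWAT-Exos (30.6% of all genes). There both were at least 2-fold above each of the 6 other libraries, while 18.6% of genes were beyond all 6 in either direction. In LFD-iWAT-Exos (5.09% of genes) Ctgf was apart and Cebpb was not. Cebpb, an early adipogenic factor, was at 47.9 CPM in the control, 97.6 in LFD-BAT-Exos, 103.9 in HFD-iWAT-Exos, 103.7 in HFD-vWAT-Exos and 107.3 in HFD-BAT-Exos. Ctgf had 33 counts in the control, 104 in LFD-iWAT-Exos, 96 in LFD-BAT-Exos, 59 in HFD-iWAT-Exos, 79 in HFD-vWAT-Exos, 82 in HFD-BAT-Exos and 1213 in LFD-vWAT-Exos. These comparisons share the 1 control library, whose part was not tested.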
